A study of Mus musculus with 8 samples.

Results

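Regions marked by 5-hydroxymethylcytosine (5hmC) in all 8 libraries of a mouse reprogramming series are described here. The peaks of the 8 lists were merged where they overlapped or touched, which gave 222732 union regions. A region was present in a list when at least 1 peak of that list shared at least 1 bp with it. The members were chosen by presence in all 8 lists, and 5750 regions met this rule. They are 2.58% of the union regions (exact 95% interval 2.52 to 2.65) and hold 7.11% of the sequence under them. Presence, the peaks and their widths in every list entered the choice, so the values below are descriptions and carry no test.

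5hmC is made from 5-methylcytosine by the TET dioxygenases. It is an intermediate of active DNA demethylation and also a lasting mark, found mostly over gene bodies, active enhancers and the flanks of promoters. The pattern differs between cell types, and reprogramming to pluripotency is known to remodel it. Regions that keep the mark at the start, on the way and at the end are the background against which that remodelling is read.

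The 8 libraries were mouse embryonic fibroblasts (MEF, title MEFP3), intermediates at D1, D3 and D5 (read as days) made with OSNK or with OySyNyK, and induced pluripotent stem cells (iPSC). OSNK is known from the study as Oct4, Sox2, Nanog and Klf4. OySyNyK is known as that set with a YAP transactivation domain attached to Oct4, Sox2 and Nanog, the members marked y. The growth protocol names OG2-MEFs, known as fibroblasts with a GFP reporter under Oct4 regulatory sequence, and vitamin C and LIF were added for iPSC generation. The iPSC library is titled with the OySyNyK factors and the number 2, and how many lines it stands for is not stated in the labels. iPSC were kept on mitomycin C-treated MEF feeders. Whether feeder DNA entered the iPSC library is not stated, and its part in the regions shared with MEF was not tested. Each group had 1 library, so no difference has a replicate check, and the intervals given cover counting over regions only.

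Read depth is unknown. The lists held 54938 (iPSC) to 116302 (OSNK D1) peaks covering 41.1 to 98.2 Mb, and both list length and peak width bear on presence. Peaks carried the authors' score (MACS reports -10 × log10 p), and the lowest score in any list was 50. The lists extend past the last gene of GRCm38 on 10 of 20 chromosomes and are in another mouse assembly. An annotation of that assembly was not used here. Regions are therefore given by chromosome and position, counted from 1 as in the lists, without gene names or sequence, and the cell labels were not checked against marker genes.

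Few regions outlasted the whole course, and the list that most often ended a run was iPSC. Regions present in 1 list numbered 87054, and the count went down with each further list to 14861 in 6 lists, 12904 in 7 and 5750 in 8. Of the 12904 regions missing from 1 list, 9159 (71.0%) were missing from iPSC and 2274 (17.6%) from MEF. Each of the 6 intermediates was the missing list in 110 to 433 regions. iPSC was also the shortest list, with the lowest median score, so absence there need not mean absence of 5hmC.

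**Figure D1:**
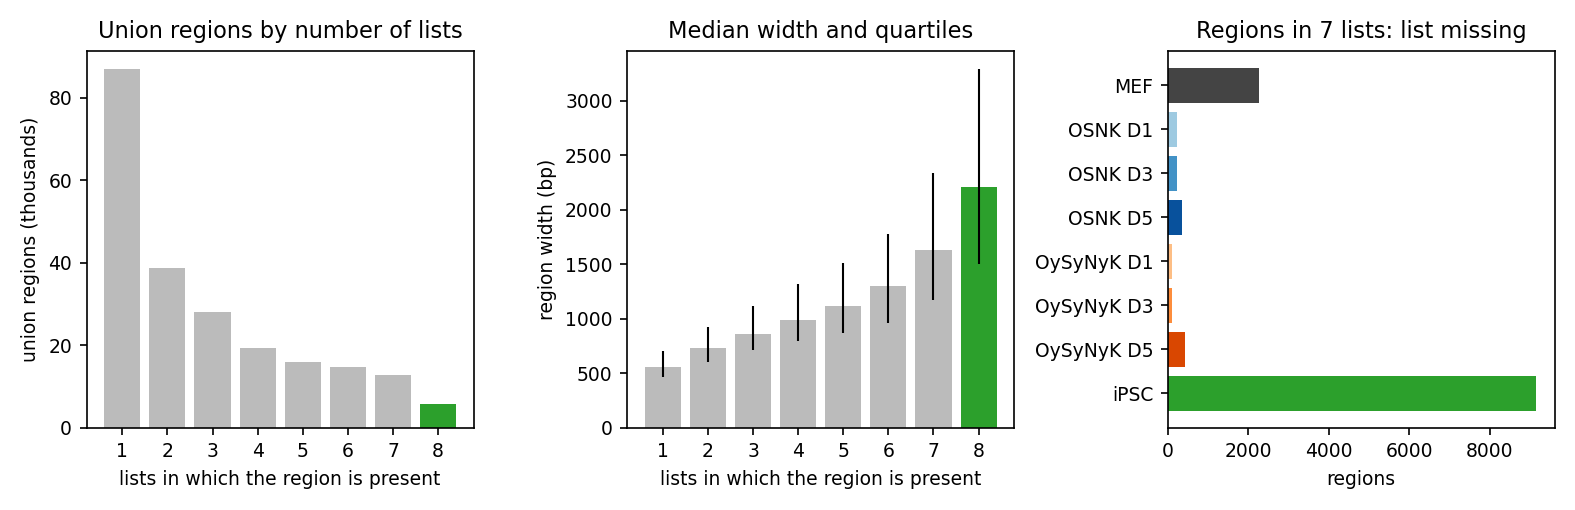
Union regions by the number of lists in which they are present (left, × 1000 regions), their median width with a line from the lower to the upper quartile (middle, bp), and the list that is missing in regions present in 7 lists (right, number of regions). The 5750 regions present in all 8 lists are green; they are the fewest and the widest, with a median of 2207 bp, and 9159 regions lack iPSC alone.

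Members were wide. Their median width was 2207 bp (quartiles 1499 and 3295, range 629 to 23835), against 1634 bp in regions of 7 lists and 562 bp in regions of 1 list. Merging makes this partly circular, because a region joined from many peaks has more chances to touch every list. None of the 34250 union regions up to 500 bp wide was a member, and 3.88% of those between 1000 and 2000 bp were. Of those between 4000 and 8000 bp, 51.5% were members, and of the 122 above 8000 bp, 86.1% were.

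Regions just outside the rule for want of iPSC scored lower than members in every list that held them except OSNK D1, where they scored about as high. In 1854 members (32.2%) the lowest of the 8 best scores was under 60. iPSC gave the lowest score in 3242 members and MEF in 775, and scores of different lists are not on a shared depth. The 9159 regions that lacked iPSC alone had median best scores of 160 in MEF, 303 at OSNK D1 and 98.1 at OySyNyK D5, where members had 197, 305 and 152. At OSNK D3 and D5 these regions had 182 and 132, where members had 215 and 171. At OySyNyK D1 and D3 they had 238 and 155, where members had 279 and 216. The 2274 that lacked MEF alone had a median best score of 79.6 in iPSC, where members had 83.2, but 134 at OSNK D1 and 154 at OySyNyK D1, where members had 305 and 279.

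Most members were built round a shared stretch of DNA. In 4559 of them (79.3%, exact 95% interval 78.2 to 80.3) at least 1 base was covered in all 8 lists. This common part had a median length of 562 bp (quartiles 431 and 747), or 29.6% of the region's width, and it was a single run in 4017 regions and broken in 542. It reached 1000 bp or more in 533 regions. The other 1191 members, with a median width of 2761 bp, had a peak from every list but no base covered in all of them. In 679 of those 1191 (57.0%) the other 7 lists shared a base once iPSC was set aside, and in 261 (21.9%) they did so without MEF.

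Round the centre of the common part, the lists differed in how far their peaks reached. The peak over the centre had a median width of 741 bp in iPSC and 1178 bp in MEF. OSNK gave 1099, 1452 and 1006 bp in day order (D1, D3, D5), and OySyNyK 1079, 1109 and 1033 bp. At 500 bp from the centre, 28.2% of these regions were still covered in iPSC, 58.8% in MEF, 69.6% at OSNK D3 and 48.5% to 55.0% in the other 5 intermediates. iPSC peaks were thus the narrowest over the same centres and those of OSNK D3 the widest. At 3000 bp iPSC was still lowest, at 9.64%, and OSNK D3 highest, at 23.5%, while MEF, at 14.8%, now lay below all 6 intermediates.

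**Figure D2:**
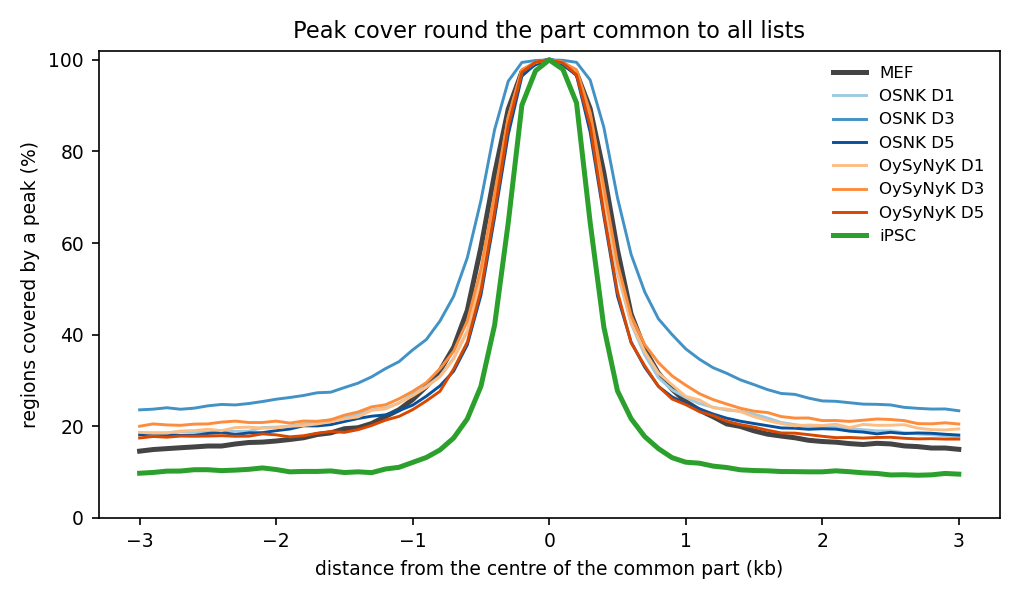
Percentage of the 4559 regions with a common part that are covered by a peak of each library, against the distance from the centre of that part (kb, steps of 100 bp). All lines are at 100% at the centre by construction; iPSC has the narrowest profile, 28.2% at 500 bp, and OSNK D3 the widest, 69.6%.

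Peak cover within the members was lowest in iPSC and highest at OSNK D3. The median share of a member covered by peaks was 68.0% in MEF. OSNK gave 68.4%, 86.3% and 64.7% in day order, and OySyNyK 68.2%, 70.2% and 64.2%. In iPSC it was 41.1%. Summed over members, cover was 9.62 Mb in MEF, between 9.42 and 12.4 Mb in the intermediates and 6.22 Mb in iPSC. Relative to whole lists the members' part was steadier, at 15.3% of the MEF cover and 15.1% of the iPSC cover, with 10.7% at OSNK D1 the lowest and 16.4% at OySyNyK D5 the highest. A region's cover differed by a median of 2.69 times between its highest and lowest list. It stayed within 1.5 times in 322 members (5.60%), whose median width was 1329 bp, and exceeded 4 times in 1231.

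Member peaks were on the strong side of every list, least clearly in iPSC. Presence in every list favours wide regions, and width had a rho of 0.22 to 0.47 with the best score. The higher scores are thus tied to the choice, and nothing is read from them. The median best score of a member was 197 in MEF and 83.2 in iPSC, with 305, 215 and 171 in day order for OSNK and 279, 216 and 152 for OySyNyK. Peak for peak, the median score was 166 for peaks in members and 103 for all peaks of the list in MEF, 230 and 104.5 at OSNK D1, 127 and 75.8 at OySyNyK D5, and 80.2 and 71.0 in iPSC. Members held 10.8% of MEF peaks and 26.8% of the best-scoring 10% of that list (exact 95% interval 25.7 to 27.9). In iPSC they held 12.7% of all peaks and 21.7% of the best 10% (20.6 to 22.8). At OySyNyK D5 they held 11.6% and 39.4% (38.2 to 40.5), and at OSNK D5 9.24% and 31.0% (30.0 to 31.9). Across the intermediates the share of the best 10% was lowest at OSNK D1, at 25.0%. A best score was at least 100 in every list for 1092 members.

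**Figure D3:**
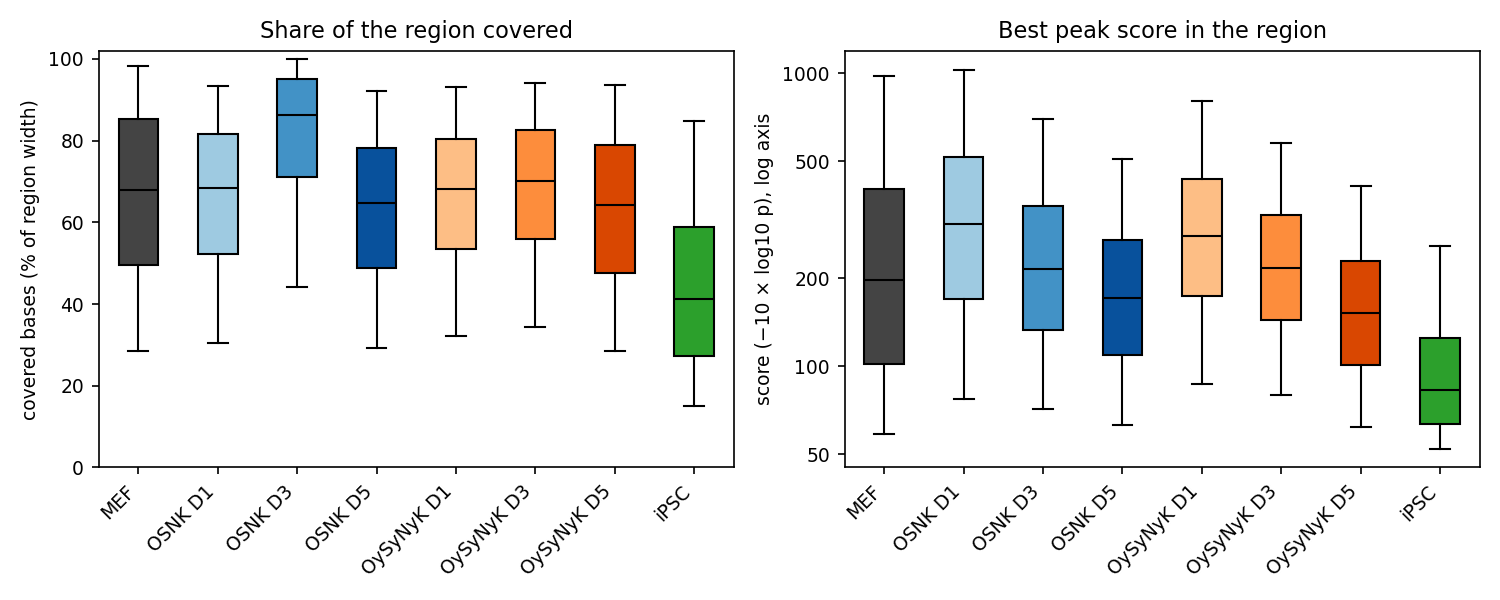
Share of each member covered by peaks (left, % of region width) and best peak score of each member (right, −10 × log10 p, log axis) in the 8 libraries, over 5750 regions. Boxes span the quartiles with the median as a line, and whiskers run from the 5th to the 95th percentile; iPSC is lowest in both panels, with medians of 41.1% and 83.2.

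Which members scored high changed along the course. Over the 5750 regions, Spearman's rho of best scores between MEF and OSNK D1 was 0.58 and between MEF and OySyNyK D1 0.54. At D3 these were 0.29 and 0.25, at D5 0.16 and 0.17, and between MEF and iPSC rho was 0.05. With iPSC, rho went from -0.04 at OSNK D1 to 0.07 and 0.15 at D3 and D5, and from 0.08 at OySyNyK D1 to 0.24 and 0.32. The methods resembled each other most at D1, with a rho of 0.77, and had 0.59 at D3 and 0.55 at D5. The points share region width, which had a rho of 0.22 to 0.47 with the best score depending on the list. Regions are not independent replicates, so no p is given. In iPSC, 19.3% of members had a best score under 60, near the lowest score of 50, and the effect on rho was not tested. For the share of a region covered, the course was less regular. Its rho with MEF was 0.35, -0.09 and 0.01 in day order for OSNK. OySyNyK gave 0.34, 0.10 and 0.12, and iPSC 0.21.

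Most members were covered over fewer bases in iPSC than in MEF. Cover was lower in 4602 of 5750 members (80.0%) and higher in 1146 (19.9%), with a median log2 ratio of iPSC over MEF of -0.64 (order-statistic 95% interval -0.67 to -0.62). Cover was at least 2-fold lower in 1919 members (33.4%) and at least 2-fold higher in 165 (2.87%). Of all 11660 union regions present in both lists, 25.1% were at least 2-fold lower and 2.6% at least 2-fold higher, and nothing is read from the difference, since the rule used both lists. The summed cover of members in iPSC was 0.646 times that in MEF, where the whole lists gave 0.653. With every peak set to 500 bp, 4491 regions were present in all 8 lists and their median log2 ratio was 0.00. A region with 1 peak in each list has that value by construction, so nothing is read from it. In the 2444 members with 1 peak in each list, where cover is the width of that peak, the median log2 ratio was -0.53 and the median width 1016 bp in MEF and 689 bp in iPSC.

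Cover at D1 and D5 was near that of MEF in the median, and cover at OSNK D3 was above it. The median log2 ratio to MEF for OSNK was -0.03, 0.26 and -0.08 in day order, while OySyNyK gave -0.02, 0.02 and -0.08. At OSNK D3, 69.9% of members had more cover than in MEF. The summed cover of members there was 1.29 times that in MEF, where the whole lists gave 1.56. Peaks outside members were also wider at OSNK D3, with a median of 886 bp against 817 bp in MEF. The higher cover at OSNK D3 was thus not particular to members. At OSNK D5, 9.65% of members were at least 2-fold lower than MEF and 9.11% at least 2-fold higher, against 12% and 5.38% of all union regions present in both lists. At OySyNyK D5 the shares were 9.06% and 8.16%, against 12.3% and 4.17%. D3 was the day of highest cover for 4048 members (70.4%) with OSNK and for 2135 (37.1%) with OySyNyK. Cover fell at both steps from D1 to D5 in 874 members with OSNK and in 1347 with OySyNyK. It rose at both in 507 and 1062. No share over all union regions stands beside these day counts, so nothing particular to members is read from them. The median log2 ratio of OSNK D3 over D1 was 0.255 in members and 0.245 over all 61699 union regions present in both lists. For OSNK D5 over D3 it was -0.31 in members and -0.37 over all 56787 such regions.

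The 1919 members that were at least 2-fold lower in iPSC had a median cover of over 50% at D5 with both methods. Their median cover was 79.2% in MEF and 25.6% in iPSC, with 74.1%, 86.9% and 61.0% in day order for OSNK and 70.9%, 67.3% and 56.3% for OySyNyK. The 165 members at least 2-fold higher in iPSC went the other way, with 29.0% in MEF and 75.4% in iPSC. Among these 165, OSNK had 36.8%, 71.7% and 59.6% at D1, D3 and D5, and OySyNyK had 49.1%, 66.7% and 71.4%. The intermediates entered the choice of either group through presence and through the bounds of the merged regions, though not through their own cover. Their values are thus not independent of the choice. The MEF and iPSC values, which chose the groups, are descriptions only.

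The methods covered members about equally at D1 and D5, while their whole lists differed in cover. The summed cover of members with OySyNyK was 1.01 times that with OSNK at D1 and 0.979 times at D5. The whole lists gave 0.836 and 0.821. The median log2 ratio of OySyNyK over OSNK was -0.01 at D1 (order-statistic 95% interval -0.02 to 0.00) and 0.00 at D5 (-0.01 to 0.01), and it was -0.22 at D3 (-0.23 to -0.21), when OSNK had its wide peaks. At D1, 2.57% of members were at least 2-fold lower with OySyNyK and 3.11% at least 2-fold higher, against 3.92% and 1.53% of all union regions present in both lists. At D3 these shares were 7.86% and 1.41%, against 12.9% and 0.74%, and at D5 6.21% and 5.46%, against 6.05% and 3.75%. OySyNyK was above OSNK on all 3 days in 639 members and below on all 3 in 1415. No share over all union regions stands beside these counts, so nothing particular to members is read from them. Over all union regions present in both lists, the median log2 ratio of OySyNyK over OSNK was -0.10, -0.34 and -0.02 in day order.

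The balance of the methods differed between the groups set by MEF and iPSC. Of the 165 members with at least 2-fold more cover in iPSC, OySyNyK exceeded OSNK in 117 at D1 (70.9%, exact 95% interval 63.3 to 77.7), in 72 at D3 (43.6%, 35.9 to 51.6) and in 116 at D5 (70.3%, 62.7 to 77.2). The median log2 ratio of OySyNyK over OSNK in this group was 0.28 at D1 and 0.29 at D5. At D3 it was -0.09 (order-statistic 95% interval -0.19 to 0.02). Of the 1919 with at least 2-fold less cover in iPSC, OySyNyK exceeded OSNK in 42.7%, 18.97% and 43.3%. In the 3666 members within 2-fold the shares were 51.4%, 26.98% and 52.9%, and over all members 49.0%, 24.8% and 50.2%. On each day, the members that gained in iPSC thus had more often more cover with OySyNyK than those that lost. The iPSC library that set these groups is titled with the OySyNyK factors, and its part in this was not tested.

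The 5 widest members and the 5 with the longest common part shared 2 regions, the first of which was the longest in both respects. It lay on chromosome 15 at positions 76002426 to 76026260, spanned 23835 bp and had 13517 bp covered in all 8 lists. Its cover was 21572 bp in MEF and 19129 bp in iPSC, with 20789, 23471 and 21024 bp in day order for OSNK and 21950, 22425 and 21572 bp for OySyNyK. It was broadly covered in every library, iPSC included. The second, on chromosome 5 at 114806460 to 114826925, spanned 20466 bp with a common part of 8697 bp. Its cover was 15618 bp in MEF, between 15242 and 20227 bp in the intermediates and 10626 bp in iPSC.

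The region on chromosome 19 at positions 5821679 to 5841958 was the third widest and had the largest fall of all members. Cover there was 18093 bp in MEF and 1115 bp in iPSC, with 18761, 19587 and 16761 bp in day order for OSNK and 16916, 18348 and 15529 bp for OySyNyK. All 7 other libraries had far more cover than iPSC, and the 1115 bp covered in iPSC were covered in all 8 lists. Its best score was 1352 in MEF and reached 3100 at OSNK D1 and 3203 at OSNK D3, with 995 at OySyNyK D5 and 67.8 in iPSC. The remaining 2 of the 5 widest were 15410 bp on chromosome 13 from 114378837 and 14365 bp on chromosome 5 from 115182978, whose cover in iPSC was 1812 and 1337 bp. In MEF it was 6650 and 7022 bp.

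Common parts of 6140, 5345 and 4681 bp followed on chromosome 17 (35634593 to 35647502), chromosome 11 (117166676 to 117179717) and chromosome 7 (52115008 to 52124071). On chromosome 7, cover in iPSC was 6476 bp, within the range of the other libraries, 5712 to 8448 bp. On chromosome 11 it was 7108 bp, below the 10266 to 12969 bp of the others.

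Chromosome 17 held the strongest stretch. The member with the highest rank in its weakest list lay at 35647579 to 35652342, separated by 76 bp from the one just named, and its best score was in the 99.7th percentile or above of every list. The best scores there were 1330 in MEF and 3100 in iPSC, with 3100, 2884 and 2306 in day order for OSNK and 2230, 1810 and 1578 for OySyNyK. Next to it, at 35634593 to 35647502, the best score was 714 in MEF, 1742 at OSNK D1, 1614 at OySyNyK D1 and 3100 at D3 and D5 of both methods and in iPSC. MEF was thus the lowest list in both regions, and iPSC reached 3100 in both. The score 3100 recurs among the top peaks, and the highest score in any list was 3203, at OSNK D3. A score of 3100 was reached or passed by 14 peaks in all, of which 13 lay in 6 members, and 7 of these 13 lay in this pair of regions. The other 4 members of high rank were on chromosomes 15 (77623397 to 77629001), 9 (118908521 to 118916230), 10 (80601459 to 80611922) and 16 (32675944 to 32681706), whose lowest percentile over the lists lay between 99.39 and 99.51.

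In the 5 largest rises from MEF to iPSC, both methods were above MEF at D3 and D5. On chromosome 15 at 98471346 to 98479386, cover was 750 bp in MEF and 7769 bp in iPSC, with 2932, 7531 and 6393 bp in day order for OSNK and 1963, 6094 and 6578 bp for OySyNyK. MEF was the lowest library and iPSC the highest. On chromosome 17 at 27246386 to 27258909, cover was 4176 bp in MEF, 1811, 10691 and 7069 bp with OSNK, 4164, 9077 and 9773 bp with OySyNyK, and 10519 bp in iPSC. OSNK D1 lay well below MEF there, and OySyNyK D1 was nearly equal to MEF. On chromosome 10 at 80733105 to 80738411, OSNK had 1007, 2237 and 2141 bp and OySyNyK 2246, 2282 and 3528 bp, between 1045 bp in MEF and 4996 bp in iPSC except at OSNK D1. The remaining rises were on chromosome 4 from 117915482, from 1056 to 5726 bp, with all intermediates higher still at 7797 to 9688 bp, and on chromosome 12 from 112555357, from 1770 to 6209 bp.

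The other 4 large falls were spread over several chromosomes. On chromosome 6 at 31025218 to 31033419, cover was 8039 bp in MEF and 494 bp in iPSC, with 6455, 7028 and 3079 bp in day order for OSNK and 6537, 5332 and 1190 bp for OySyNyK. Here most of the fall was seen by D5, most clearly with OySyNyK. On chromosome 10 at 80868183 to 80877540, cover was 8822 bp in MEF and 1309 bp in iPSC, while all intermediates kept 5714 to 8157 bp. On chromosome 15 at 76029061 to 76038051, 2.80 kb beyond the widest member, cover went from 8941 bp in MEF to 3344 bp at OSNK D5, 3793 bp at OySyNyK D5 and 1731 bp in iPSC. On chromosome 12 from 114028767 it was 8960 bp in MEF and 1955 bp in iPSC. Members close together could therefore differ in direction, as on chromosome 10, where the regions with a large rise and a large fall lay 129.8 kb apart.

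The 5 members named for more cover under OySyNyK on every day did not share a course towards iPSC. On chromosome 9 at 108011923 to 108019037, OSNK had 953, 1455 and 1055 bp and OySyNyK 3231, 4486 and 5212 bp, with 4358 bp in MEF and 7115 bp in iPSC. OSNK was below both end states there, and OySyNyK was above MEF at D3 and D5. On chromosome 11 at 118371909 to 118378477, OSNK had 1494, 2591 and 2347 bp and OySyNyK 4140, 6182 and 5318 bp, with 1318 bp in MEF and 3014 bp in iPSC. On chromosome 4 at 136356017 to 136365822, OySyNyK kept 7944 to 8459 bp, near the 8413 bp of MEF, while OSNK had 3886 to 6295 bp and iPSC 4563 bp. The other regions of this kind were on chromosome 11 from 98564867 and chromosome 15 from 84778513. In the second of these, OySyNyK reached 7415 bp at D3 and 7166 bp at D5, where OSNK had 2296 and 1342 bp. The D1 differences were the least steady. On chromosome 9 that of 2278 bp was 0 bp both at a score of at least 100 and with equal numbers of peaks, and on chromosome 15 that of 1682 bp was 28 bp at a score of at least 100.

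In the 5 members named for more cover under OSNK on every day, iPSC had less than OSNK had on any day. On chromosome 5 at 147849079 to 147859489, OSNK had 5002, 10286 and 8771 bp and OySyNyK 2004, 7474 and 4841 bp, with 2108 bp in MEF and 3701 bp in iPSC. On chromosome 3 at 27404374 to 27409616, OSNK had 3122, 5156 and 3173 bp, while OySyNyK had 1270, 800 and 703 bp, MEF 827 bp and iPSC 456 bp. The others had their starts on chromosomes 7 (75129163), 8 (46040346) and 13 (114378837). At D1 the difference on chromosome 8 turned from -2329 bp to 762 bp with equal numbers of peaks and to 49 bp with a score of at least 100, and that on chromosome 13 from -2089 bp to 1110 bp with equal numbers.

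**Figure D4:**
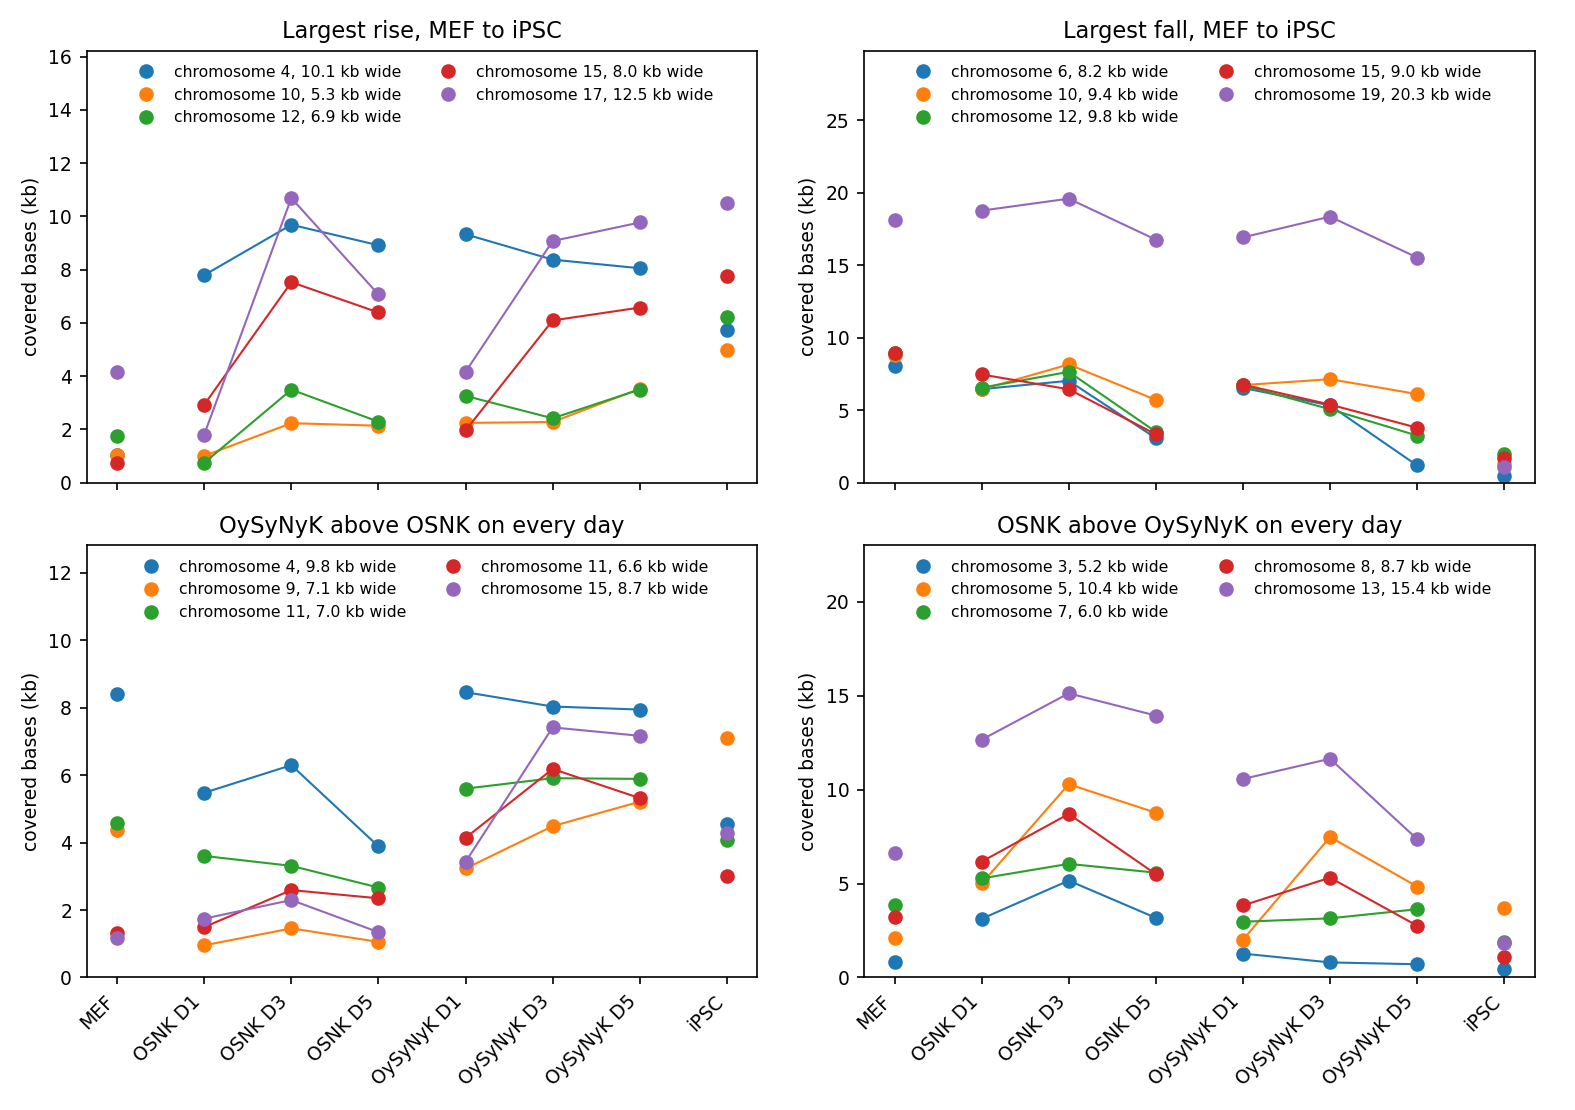
Bases covered by peaks (kb) in each of the 8 libraries for the members named for a large rise or fall from MEF to iPSC and for a same-signed difference of the methods on all 3 days, 5 in each panel. Points are single libraries and lines join the days of a method; in the fall panel the region on chromosome 19 stays between 15.5 and 19.6 kb until iPSC, at 1115 bp.

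Members were unevenly spread over the chromosomes, and most of the low and high chromosomes came nearer to the rest without the iPSC list. A chromosome's share of members divided by its share of all union regions had a median of 1.01 over autosomes. It was 0.358 on chromosome 13 (97 members), 0.470 on 16 (94), 0.547 on 18 (116) and 0.587 on 6 (146), and 1.38 on 17, 1.41 on 19 and 1.41 on 12 (396 members). With the iPSC list left out of merging and rule, 14898 regions were present in the 7 others, and the ratio was 0.894, 1.01, 0.891 and 0.790 on chromosomes 13, 16, 18 and 6 and 1.02 on chromosome 12. On chromosomes 17 and 19 it stayed above the other autosomes, at 1.22 and 1.18.

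The same was seen by asking how many regions of the 7 other lists were completed by the last. Of regions present in the 7 others, 14.3% were also in iPSC on chromosome 13, 16.5% on 16, 22.4% on 18 and 27.7% on 6, against 59.5% on chromosome 12 and a median of 41.2% over autosomes. For MEF this share varied little, from 67.3% on chromosome 3 to 75.7% on 19. Members on chromosomes 13 and 16 also had the lowest iPSC cover relative to MEF, with median log2 ratios of -1.04 and -0.97, and chromosome 12 the highest, -0.45. None of the 146, 97 and 94 members on chromosomes 6, 13 and 16 was at least 2-fold higher in iPSC. Over all members the share was 2.87%, and over all union regions present in both lists 2.6%. Chromosome 12, with 6.89% of all members, held 25 of the 165 such members (6.31% of its own members). Without chromosomes 12, 13, 16, 18 and X the median log2 ratio over the remaining 5042 members was -0.65. Whether copy number, depth or 5hmC sets these values in the iPSC library was not tested.

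The X chromosome held 5 members among 1804 union regions, which is 0.277% (exact 95% interval 0.0901 to 0.646) against 0.924% to 3.65% on the autosomes. Its ratio was 0.107, and 0.207 without the iPSC list.

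**Figure D5:**
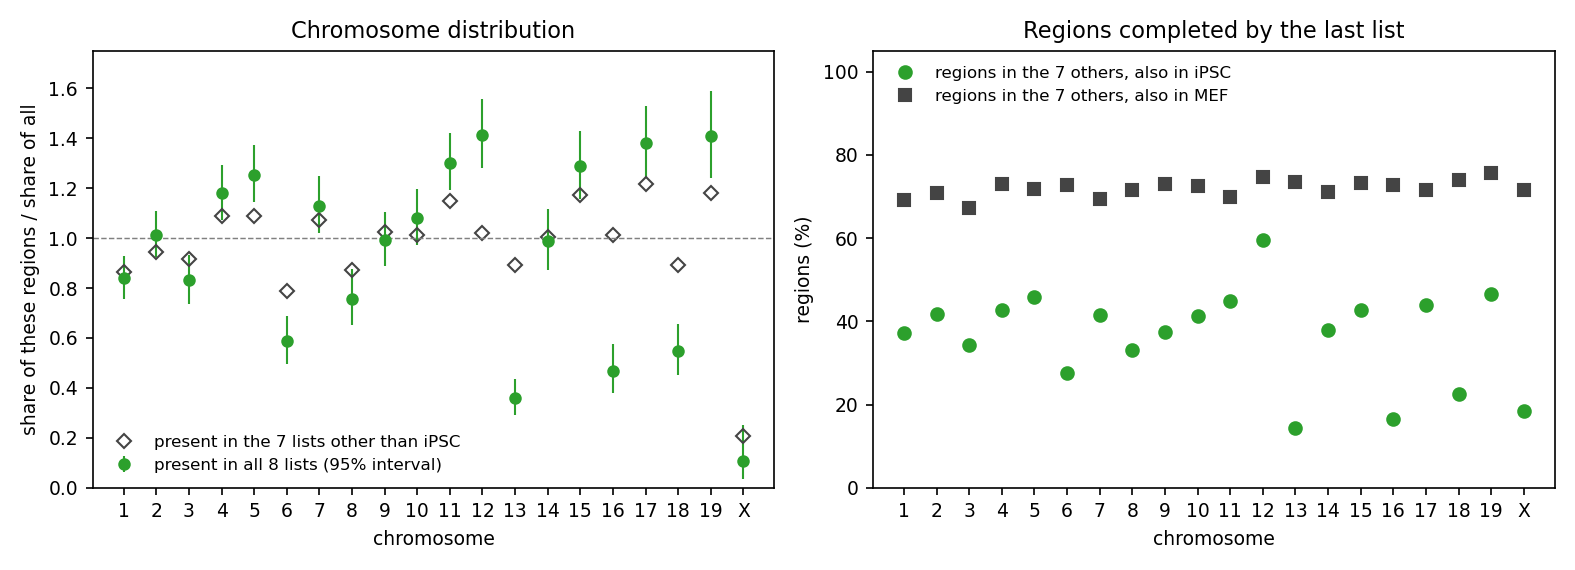
Left, each chromosome's share of the regions divided by its share of all union regions, for regions present in all 8 lists (green, with exact 95% intervals that cover counting over regions only) and for regions present in the 7 lists other than iPSC (open). Right, the percentage of regions present in 7 lists that are also in the iPSC list (green) or the MEF list (squares); chromosomes 13, 16 and 18 are low for iPSC, at 14.3% to 22.4%, and chromosome 12 high, at 59.5%.

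Members lay close to each other. The median distance from a member to the nearest other member was 21.5 kb, against 45.6 kb from regions of 7 lists and 119 kb from regions of 1 to 6 lists. Another member lay within 10 kb for 34.7% of members (exact 95% interval 33.5 to 36.0), for 23.0% of regions of 7 lists and for 10.7% of the rest. Of 2457 windows of 1 Mb with any union region, 1224 (49.8%) held no member, and 149 held 10 or more. Those 149 windows, picked for their members, held 37.4% of members and 14.2% of union regions, and nothing is read from the difference. The count of members per window followed that of union regions, with a Spearman's rho of 0.83 over windows.

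The densest window, picked after its values were seen, was on chromosome 5 at 125000001 to 126000000, with 30 members. Their summed cover was 95.1 kb in MEF and 59.0 kb in iPSC, with 81.3, 105.1 and 92.2 kb in day order for OSNK and 84.3, 88.4 and 92.7 kb for OySyNyK. The window on chromosome 12 at 112000001 to 113000000 had 27 members, whose cover was 60.86 kb in MEF and 59.99 kb in iPSC. The first window thus followed the general drop in iPSC and the second did not. Neighbouring members were nearly unrelated in their change from MEF to iPSC. Spearman's rho of the log2 ratio between adjacent members was 0.16 over 1193 pairs within 10 kb, 0.09 over 2161 pairs between 10 and 100 kb and 0.05 over 1877 pairs between 100 and 1000 kb. In 29.5% of the closest pairs the cover of the neighbours changed in opposite directions. The share was similar farther apart, 30.7% between 10 and 100 kb and 29.1% between 100 and 1000 kb.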

How the data were processed

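DNA was sonicated, 5hmC was tagged with biotin and captured, and each sample gave 1 library, per the labels' protocols. What was deposited is a peak list for each library, with a score per peak. Bowtie and MACS, and the human builds hg18 and NCBI36, come from the submitters' processing notes. The sources used here do not give tool versions, settings or a control library. The union, presence, covered length (bases of a region under a list's peaks) and common part were computed in Python 3.11.15 (numpy 2.4.6, pandas 2.3.3, scipy 1.17.1, matplotlib 3.10.9). The scripts were tested on simulated lists, and the union and presence counts were checked with bedtools 2.31.1. A covered length that differed at least 2-fold was the call, without a p-value. Shares have exact (Clopper-Pearson) 95% intervals, and medians have order-statistic intervals.

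Regions were named by rule, 5 per rule: greatest width, longest common part, highest rank in the weakest list, largest rise and largest fall from MEF to iPSC in bp, and, for each sign, the largest smallest difference of the methods among members with that sign on all 3 days. The members and lists were chosen with earlier results of these data known. Planned gene lists were not used, because no annotation of the files' assembly was used here. The closing section gives the alternatives tried.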

Additional observations from a re-analysis of the deposited data

Results flagged for a closer look

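In 2 named members every day of one method lay above MEF in covered length and every day of the other below it, which was not tested. On chromosome 7 at 75129163 to 75135209, MEF had 3838 bp, OSNK 5273, 6047 and 5578 bp at D1, D3 and D5, and OySyNyK 2966, 3147 and 3632 bp. The median of the OySyNyK days minus that of the OSNK days was -2431 bp, and iPSC had 1913 bp. On chromosome 11 at 98564867 to 98571898, MEF had 4590 bp, OSNK 3603, 3309 and 2667 bp and OySyNyK 5599, 5909 and 5888 bp. The same difference was 2579 bp there, and iPSC had 4082 bp. Both regions belong to those named for a difference of the methods on all 3 days, so that part of the pattern comes from how they were picked.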

How the results depend on the processing

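The number of members depended most on the iPSC list and on the score. It was 1076 with peaks scoring at least 100 and 2444 for members with 1 peak in every list, and leaving out each list gave 5835 (OySyNyK D1) to 14898 (iPSC). Median width was 2988.5 bp at a score of at least 100, 2381 bp with equal numbers of peaks, 1001 bp with 500-bp peaks, 4426 bp with peaks within 1 kb merged, 1826 bp with at least 25% cover, 2024 bp for members with a common base and 1420 bp for those with 1 peak in every list. Leaving out each list gave 1792 to 2160 bp. The share with a common base was 55.2% with 500-bp peaks, 57.6% with 1-kb merging, 87.5% with 25% cover and 92.1% with 1 peak in every list, and 80.2% to 90.2% over lists left out.

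The median log2 ratio of iPSC over MEF was -0.51 at a score of at least 100, -0.73 with equal numbers, 0.00 with 500-bp peaks, where widths are set, -0.69 with 1-kb merging, -0.51 with 25% cover, -0.62 with a common base and -0.53 with 1 peak in every list. It lay between -0.66 and -0.62 over the 6 intermediates left out. That of OySyNyK over OSNK at D5 was 0.028 at a score of at least 100, -0.032 with 1-kb merging, 0.036 with 25% cover and 0.048 with 1 peak in every list, and -0.059 to 0.018 over lists left out. At a score of at least 100 the chromosome ratios were 0.335 on chromosome 6, 1.62 on 12, 0.0784 on 13, 0.233 on 16, 0.424 on 18 and 0 on X, and chromosome 12 had 1.21 with equal numbers. Over lists left out they were 0.575 to 0.790 on 6, 1.02 to 1.43 on 12, 0.347 to 0.894 on 13, 0.454 to 1.01 on 16, 0.534 to 0.891 on 18 and 0.0801 to 0.207 on X.

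With the score of the widest peak in place of the best, medians were 189.8 in MEF, 286 (D1), 211 (D3) and 164 (D5) for OSNK, 264, 207 and 146 for OySyNyK, and 81.5 in iPSC. Of the values of named regions under 2 alternatives, 62 stayed within 1.5 times, 15 moved further and 3 turned sign. The last were the OySyNyK minus OSNK differences at D1 on chromosome 8 from 46040346 (49 bp at a score of at least 100, 762 bp with equal numbers) and chromosome 13 from 114378837 (1110 bp with equal numbers). The cause was not tested. The alternatives for members with a common base, with 1 peak in every list and without chromosomes 12, 13, 16, 18 and X were chosen after seeing the data. The gene context alternative was not run. No paired analysis was possible because the groups share fewer than 2 replicate numbers; the methods share days, which are not replicates, and their signs over the days are counted without a test. Depth is unknown, so absence from a list is not absence of 5hmC.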
